A study of Mus musculus with 24 samples.

Results

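In vitro differentiated Th1 and Th2 cells of female C57BL/6 mice were compared after 6 hr of treatment with JQ1, a small molecule that blocks the acetyl-lysine pocket of BET bromodomain proteins. Of the 24 arrays of the series, 8 carried JQ1-treated cells at 6 hr, and these were chosen by their labels alone. They comprised 4 Th1 and 4 Th2 arrays, 1 of each cell type for 50 nM unstimulated, 50 nM reactivated, 500 nM unstimulated and 500 nM reactivated cells. Each Th1 array was matched with the Th2 array of the same dose and state, which gave 4 matched pairs. Both channels of every array held RNA of this strain and sex: the polarized cells were labelled with Cy3, and a reference of naive CD4+CD62L+CD25-CD44lo T cells from lymph nodes and spleens was labelled with Cy5, without a dye swap. Values are therefore log2 ratios of sample over naive reference, and a Th1-Th2 difference is the log2 ratio on the Th1 array minus that on the matched Th2 array. There was 1 array per condition and 1 stated biological replicate, so standard errors and p values measure how the Th1-Th2 difference varied between the 4 contexts, and not between cultures or mice. The labels did not say how cells were reactivated or how many mice were pooled, and the cultures were not labelled as sorted.

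Th1 cells are the T helper lineage directed by the transcription factor T-bet (Tbx21) and marked by interferon-γ, and they act against intracellular pathogens. Th2 cells are directed by GATA3, secrete IL-4, IL-5 and IL-13 from a shared cytokine locus, and act in responses to helminths and in allergy. Each program is built from signals that cells receive while they polarize, with STAT4 on the Th1 side and STAT6 on the Th2 side, and the cytokines themselves are mostly made once the cells meet antigen again. BET proteins read acetylated histones at promoters and enhancers and help RNA polymerase to pass from initiation into elongation. Matching the lineages under JQ1 asked which parts of the lineage difference were present in cells with these readers inhibited.

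The arrays differed in ways that bear on every value. All 4 Th1 arrays lay on 1 slide and all 4 Th2 arrays on another, so that cell type and slide cannot be told apart within these 8 arrays. The 4 DMSO arrays, Th1 and Th2, unstimulated and reactivated, lay together on the slide of the Th1 JQ1 arrays, and their Th1-Th2 values are given beside those under JQ1 as within-slide values; the time of the Th2 DMSO arrays was given differently in separate labels. Between 43.8% and 51.1% of probes were well above background in Cy3 on the 8 arrays, with the lowest share on the Th1 500 nM reactivated array. That array also stood apart in its spike-in controls, with a median log2 ratio of 0.94 against -0.67 to 0.03 on the other 7, and counts are repeated below without its pair. T helper cell genes such as Cd28 and Lck were bright on all 8 arrays, with a summed Cy3 intensity of 62377 to 164990 over 10 genes. Treg markers summed to 7439 to 28103 on the Th1 and 4013 to 10895 on the Th2 arrays, Th17 markers to 382 to 861 and 357 to 1851, Tfh markers to 2032 to 3981 and 1358 to 2664, and myeloid markers to 11963 to 15061 and 14726 to 18914. Mast cell and basophil markers were well above background on none of them, and of 4 NK cell markers 3 were never well above background. B cell markers had a summed Cy3 intensity of 707 to 1295 on the Th1 arrays and 2448 to 4443 on the Th2 arrays. In cultures of this kind, fewer cells of a type and less RNA per cell cannot be told apart.

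Th1 and Th2 cells differed widely under JQ1. Of 12243 genes tested with limma, 929 were higher in Th1 (7.59%) and 752 were higher in Th2 (6.14%) at an adjusted p below 0.05, together 13.7% of genes. The differences were mostly modest in size: the median called gene was 1.57-fold higher in Th1 or 1.49-fold higher in Th2, while 209 and 111 genes differed at least 2-fold and 47 and 19 at least 4-fold. The 4 Th1 arrays did not overlap with the 4 Th2 arrays for 829 genes (6.77%), and 133 genes (1.09%) differed at least 2-fold in the same direction in 4 of 4 pairs, 86 of them towards Th1. Leaving out any 1 of the 4 pairs gave 407 to 548 genes higher in Th1 and 241 to 452 higher in Th2, with 548 and 452 without the 500 nM reactivated pair. Without the block for context 29 and 23 genes were called. Towards Th1 went 55.3% of the calls, and 43.5% when each array was centred on its median in place of loess.

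Genes of the identity lists were counted by lineage. Among 30 tested genes of 3 Th1 lists (ligands, receptors and transcription factors), 21 were higher in Th1 and none in Th2, 9 did not pass the test, and the median difference was 1.51. Among 30 tested genes of 4 Th2 lists (cytokines, receptors, transcription factors and other effectors), 13 were higher in Th2, 2 were higher in Th1 and 15 did not pass, with a median of -0.60. The median over all genes tested was 0.00. With signal well above background required on all 8 arrays, 12 of 19 Th1 genes were higher in Th1, with a median of 1.53. Of 21 Th2 genes 9 were then higher in Th2 and 2 in Th1, and their median of 0.015 had lost its direction. Without the 500 nM reactivated pair, the counts were 21 of 30 for the Th1 lists and 9 of 30 for the Th2 lists, with no call in the opposite direction. Without the block for context 2 of 30 passed in each, and with 24 hr Th1 500 nM arrays in place of those of 6 hr 8 of the 30 Th2 genes. The arrays of the cell types did not overlap for 10 of the 30 Th1 genes and 6 of the 30 Th2 genes. Some called genes were measured in part in the lower lineage. Hlx and Klrd1 were well above background on 1 of the 4 Th2 arrays, Il18r1, Il18rap and Zeb2 on 2, and Xcl1, Ccl3, Eomes and Cxcr1 on 3. Il4, Cyp11a1, Nts and Cd79a were so on 2 of the 4 Th1 arrays, and Ccr4, Slc7a8 and Aurkb on 3. Of the tested genes, 47 had no such signal on any array of 1 cell type and passed the filter through the other alone. They account for 9 of the 929 calls towards Th1 and 21 of the 752 towards Th2, and a gene of this kind had to differ to pass the filter.

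**Figure D1:**
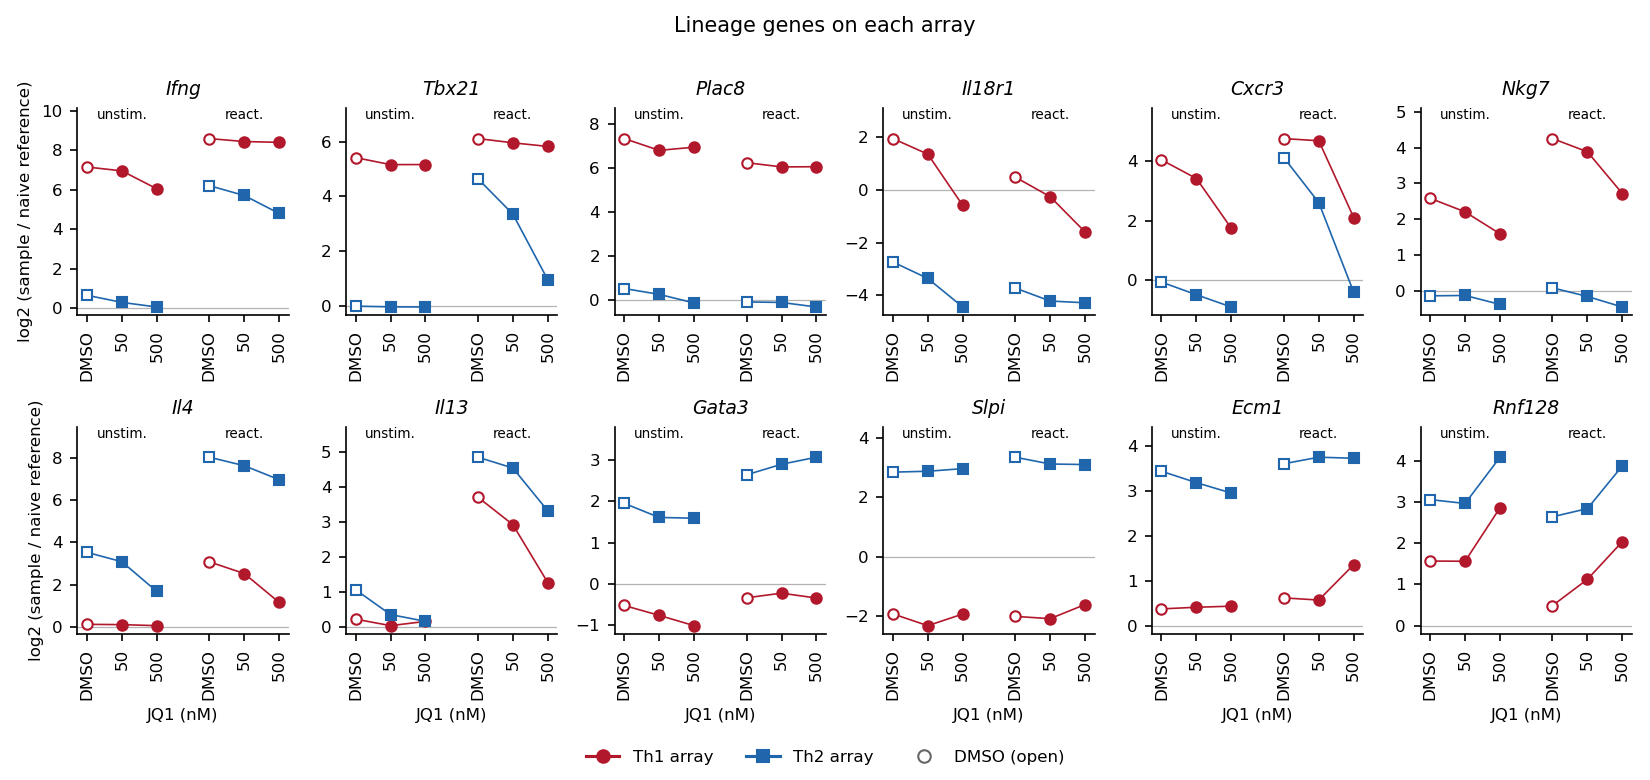
Log2 ratio of sample over naive reference (y axis) on each array for 12 lineage genes, by JQ1 dose in nM (x axis), with unstimulated arrays at the left and reactivated arrays at the right of each panel. Red circles are Th1 arrays, blue squares are Th2 arrays, and open symbols are the DMSO arrays; each point is 1 array, so there are no error bars. Th1 and Th2 points lie apart at every dose for Plac8, Slpi, Gata3, Ecm1, Il18r1 and Nkg7, while reactivated arrays of the opposite lineage lie above its unstimulated ones for Ifng, Tbx21, Cxcr3 and Il4.

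Tbx21, which encodes T-bet, had log2 ratios of 5.16, 5.95, 5.16 and 5.82 on the Th1 arrays, in the order 50 nM unstimulated, 50 nM reactivated, 500 nM unstimulated and 500 nM reactivated that is kept throughout, and -0.05, 3.34, -0.05 and 0.94 on the Th2 arrays. Th1 arrays were high in all 4 contexts, unstimulated Th2 arrays stood at the naive level, and the reactivated Th2 arrays stood above it, further at 50 than at 500 nM. Of the Th2 arrays 3 of 4 had signal well above background. The groups did not overlap, and the difference was 4.48 (SE 0.42, adjusted p = 0.00218). On the DMSO arrays it was 5.44 in unstimulated cells and 1.47 in reactivated cells, where the Th2 array itself reached 4.64. Among the other 9 Th1 transcription factors tested, 6 were higher in Th1. They were Bhlhe40 (2.04), a repressor that supports cytokine production, Stat4 (1.17), which carries the IL-12 signal, Zeb2 (0.99), Runx3 (0.95), a partner of T-bet, Eomes (0.76), a T-box relative of T-bet, and Hlx (0.51), a homeobox partner of T-bet. Other probes of Zeb2, Runx3 and Eomes gave differences as small as -0.0045, 0.09 and 0.26. Hlx was dim, with Cy3 log2 intensities of 6.47 to 6.85 on the Th1 arrays. On the Th2 50 nM reactivated array both of its channels were raised, at 7.72 in Cy3 and 7.55 in Cy5. In Cy3 alone Hlx was thus higher in Th2 in that pair, against 6.47 in Th1. Of the 3 that did not pass, Irf1 and Prdm1 had differences of 0.95 and 0.41.

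Ifng, the signature cytokine of Th1 cells, had log2 ratios of 6.95, 8.44, 6.04 and 8.40 on the Th1 arrays and 0.29, 5.70, 0.05 and 4.79 on the Th2 arrays. Unstimulated Th1 cells stood above reactivated Th2 cells, so the groups did not overlap, and 2 of the 4 Th2 arrays had signal well above background. The difference was 4.75 (SE 0.63, adjusted p = 0.00657). For this gene the naive channel differed too: the Cy5 log2 intensity was 10.86 and 10.16 on the reactivated Th1 arrays but 5.97 and 5.72 on the reactivated Th2 arrays. In Cy3 alone, the sample channel, log2 intensities were 13.85, 19.29, 12.34 and 18.56 for Th1 and 6.21, 11.68, 6.07 and 10.52 for Th2, a mean difference of 7.39. A mean Cy5 difference of at least 2-fold between Th1 and Th2 arrays was seen for 17 tested genes, 13 of them called, and 1677 of the 1681 called genes kept their direction in Cy3 alone. Ccl3, Gzmb, Bhlhe40 and Jchain were among the genes with such a Cy5 difference, at 2.25, 1.63, 1.31 and -1.21 on the log2 scale. Smaller Cy5 differences, such as 0.71 for Ccl4 and 0.79 for Ccl5, are not in that count.

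Of the 9 Th1 ligands tested, Ifng included, 7 were called higher in Th1, with a median of 1.54 over the list. With the log ratios of the scanner software 2 of the 9 were called, and none without the block for context. The macrophage-attracting chemokine Ccl4 had log2 ratios of 3.99, 10.22, 3.73 and 10.16 on the Th1 arrays and 1.16, 8.68, 0.64 and 8.35 on the Th2 arrays, a difference of 2.32 (SE 0.26, adjusted p = 0.00427). Reactivated Th2 arrays were far above unstimulated Th1 arrays, so the groups overlapped although Th1 was higher in every pair. Lta, encoding lymphotoxin-α, was higher in Th1 in 4 of 4 pairs with a difference of 1.55 (SE 0.08, adjusted p = 3.18e-04). Ccl5 (1.53), Xcl1 (1.49), Tnf (1.38) and Ccl3 (1.32) were also called. Cxcl10 and Fasl did not pass, with differences of 1.91 (adjusted p = 0.0637) and 1.54 (adjusted p = 0.0508), and Cxcl9 was not tested because it was above background on 1 array of each cell type.

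Receptors that make Th1 cells responsive to IL-18 and to inflammatory chemokines formed the Th1 list with the largest median, 2.00, and 7 of its 11 tested genes were higher in Th1. Il18r1, the IL-18 binding subunit, had log2 ratios of 1.37, -0.25, -0.59 and -1.60 on the Th1 arrays and -3.37, -4.23, -4.46 and -4.30 on the Th2 arrays. Th2 arrays lay far below the naive reference, 2 of them without signal well above background, and all lay below the lowest Th1 array. The difference was 3.82 (SE 0.29, adjusted p = 9.42e-04), and another probe of the gene gave 1.34. The partner chain Il18rap (2.00), the chemokine receptors Cxcr3 (2.77) and Cxcr6 (2.40), the interferon-γ receptor chain Ifngr1 (1.91) and the surface antigen Ly6c1 (3.21) were among those called as well. The 2 chains of the IL-12 receptor were not called: Il12rb2 differed by 0.73 (adjusted p = 0.0545) and Il12rb1 by 0.35. Nor were Havcr2, which encodes Tim-3, or Il27ra, at 0.24 and -0.29.

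Among all genes called with the same sign in 4 of 4 pairs, the largest difference belonged to Plac8, which encodes a small cysteine-rich protein. Its log2 ratios were 6.79, 6.04, 6.93 and 6.05 on the Th1 arrays and 0.25, -0.12, -0.14 and -0.32 on the Th2 arrays, with no overlap in any context. The difference was 6.53 (SE 0.15, adjusted p = 9.63e-06), and 4.27 by its other probe. It was 6.81 and 6.32 on the unstimulated and reactivated DMSO arrays. The 10 largest towards Th1 also held Ifng, Tbx21, AA467197 (3.97), Il18r1, Sytl3 (3.76), a synaptotagmin-like protein of vesicle traffic, the chemokine receptor Cxcr1 (3.43), Ly6c1, Bend4 (2.98) and Ifitm3 (2.95), an interferon-induced protein that restricts viral entry. Ifitm3 was also the steadiest of them, at 3.38, 3.73, 3.45 and 3.63 against 0.53, 0.76, 0.52 and 0.57. Bend4 and Sytl3 were measured by other probes at 1.05 and 1.81.

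Of 10 cytotoxic granule genes tested, 7 were higher in Th1, none in Th2, and the median was 1.41. Without the filter on signal 8 of 15 were higher in Th1, and the median was 0.46. With the 24 hr Th1 500 nM arrays 4 of the 10 were called, and 3 without the block for context. The granule membrane protein Nkg7 had log2 ratios of 2.21, 3.89, 1.59 and 2.72 on the Th1 arrays and -0.14, -0.16, -0.39 and -0.46 on the Th2 arrays, so that Th2 cells stayed at or below the naive level in all 4 contexts while Th1 cells were above it. The difference was 2.89 (SE 0.32, adjusted p = 0.00366). Cathepsin W (Ctsw) was below naive in both lineages, at -0.49, -0.71, -0.36 and -0.55 in Th1 and -3.08, -3.04, -3.22 and -3.13 in Th2, and Th1 was nonetheless higher by 2.59 (SE 0.11, adjusted p = 1.07e-04). The granzymes Gzma (2.49), Gzmc (1.52) and Gzmb (1.31), the NK receptor chain Klrd1 (2.38, with signal on 1 of 4 Th2 arrays) and the protease inhibitor Ctla2a (0.69) were also higher in Th1. Perforin (Prf1), which opens the target membrane for granzymes, differed by 0.03 (adjusted p = 0.938). CD8 T cell markers were faint on all 8 arrays, with summed Cy3 intensities of 199 to 294 in Th1 and 154 to 213 in Th2, and NK cell markers lay between 250 and 306, mostly not well above background.

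Promoters of Th1 genes were searched for a core of the T-box motif, GGTGTGA, on both strands in windows of 300 bases around RefSeq transcription starts (assembly GRCm38.p6). It was present in 3.98% of all 32851 windows and in 4.23% of the tested genes with a window (9843 of 12243). Of the genes called higher in Th1, 744 had a window and 5.78% held the motif, and of those called higher in Th2 610 had a window and 6.07% held it. Among the Th1 lists, 2 of 23 matched genes held it. Windows of Plac8 and Nkg7, the leading gene of the comparison and of the cytotoxic list, are shown from 5′ to 3′ of the gene's own strand with the motif, on either strand, in capitals. The match in Nkg7 lies 13 bases before the start and that in Plac8 248 bases before it, in 1 of the 2 windows of Plac8. A match in this window describes the letters and not a bound site.
Plac8, chr5:100572156-100572455, minus strand: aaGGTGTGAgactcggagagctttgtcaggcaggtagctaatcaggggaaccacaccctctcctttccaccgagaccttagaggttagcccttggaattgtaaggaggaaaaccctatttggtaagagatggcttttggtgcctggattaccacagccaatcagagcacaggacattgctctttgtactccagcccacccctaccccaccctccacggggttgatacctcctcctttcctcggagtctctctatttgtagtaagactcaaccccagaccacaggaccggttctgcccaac
Nkg7, chr7:43436888-43437187, plus strand: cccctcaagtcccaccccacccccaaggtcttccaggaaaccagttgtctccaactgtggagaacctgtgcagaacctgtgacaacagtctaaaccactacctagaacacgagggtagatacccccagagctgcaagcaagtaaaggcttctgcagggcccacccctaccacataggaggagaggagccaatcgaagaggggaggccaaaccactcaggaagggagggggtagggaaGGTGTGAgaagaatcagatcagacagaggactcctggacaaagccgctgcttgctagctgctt

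On the Th2 side, Gata3, which encodes the factor that directs the lineage, had log2 ratios of -0.76, -0.22, -1.0 and -0.34 on the Th1 arrays and 1.61, 2.89, 1.59 and 3.06 on the Th2 arrays. All Th1 arrays were below the naive reference and all Th2 arrays were above it, highest after reactivation. The difference was -2.87 (SE 0.18, adjusted p = 5.19e-04), against -2.47 and -2.97 on the unstimulated and reactivated DMSO arrays. Of the other 9 Th2 transcription factors tested, 3 were higher in Th2, namely the nuclear receptor Pparg (-0.95), the Notch effector Rbpj (-0.83, and -0.11 by another probe) and the repressor Gfi1 (-0.57). The AP-1 subunit Junb (1.15) and Stat6 (0.35), which carries the IL-4 signal, were higher in Th1. Maf (0.44) and Irf4 (0.70), both drivers of Th2 cytokine genes, did not pass.

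Il4 was the only tested Th2 cytokine whose mean difference passed. Its log2 ratios were 0.10, 2.52, 0.05 and 1.15 on the Th1 arrays and 3.08, 7.62, 1.67 and 6.96 on the Th2 arrays. Th2 was higher in 4 of 4 pairs, but the 50 nM reactivated Th1 array exceeded the 500 nM unstimulated Th2 array, so the groups overlapped. The difference was -3.88 (SE 0.64, adjusted p = 0.0128). Il13, Il24 and Il31 differed by -1.0, -1.34 and -0.68 without passing (adjusted p = 0.0974, 0.14 and 0.212), Il13 stood at 0.04, 2.92, 0.16 and 1.27 in Th1 and 0.36, 4.54, 0.16 and 3.32 in Th2. Areg, encoding the epidermal growth factor ligand amphiregulin, was high on the reactivated arrays of both lineages, at 6.06 and 6.10 in Th1 against 6.15 and 6.29 in Th2. Il5, Il9, Il10 and Il6 were not tested because too few arrays had signal. Il9 was measured at 5.89 and 4.60 on the reactivated Th2 arrays and 0.26 and 0.34 on the reactivated Th1 arrays. Il5 was at 3.44 and 2.94 against 0.43 and 0.16.

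Of the 7 tested genes that Th2 cells express outside cytokines, receptors and transcription factors, 6 were higher in Th2, with a median of -1.70. Ecm1, a secreted matrix protein linked to the exit of Th2 cells from lymph nodes, stood at 0.41, 0.57, 0.44 and 1.36 on the Th1 arrays and 3.19, 3.76, 2.96 and 3.74 on the Th2 arrays, with no overlap and a difference of -2.72 (SE 0.14, adjusted p = 3.15e-04). Penk, the enkephalin precursor, stood at 1.70, 6.77, 1.37 and 6.32 on the Th1 and 3.86, 8.12, 3.59 and 8.25 on the Th2 arrays, high on the reactivated arrays of both lineages, and its difference was -1.91 (SE 0.15, adjusted p = 0.00109). Plcd1 (-1.91), the steroidogenic enzyme Cyp11a1 (-1.70), the ubiquitin ligase Rnf128 (-1.55), known as GRAIL, and the amino acid transporter Slc7a8 (-0.86) were also called, and Epas1 did not pass. Of 8 tested Th2 receptors, the chemokine receptor Ccr4 (-1.18) and Crlf2 (-0.44), the TSLP receptor chain, were higher in Th2. The IL-33 receptor Il1rl1 differed by 0.35 and Ccr8 by -0.63, neither of them called, and the median of the list was 0.30. Of 5 genes that lie beside the Th2 cytokine genes, Septin8 was higher in Th2, with a difference of -1.52 (SE 0.18, adjusted p = 0.00471), although another of its probes gave -0.28. Rad50 and Kif3a, which flank Il13 and Il4, differed by -0.21 and -0.39 and were not called.

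The largest difference towards Th2 belonged to Slpi, a secreted inhibitor of leukocyte serine proteases. Its log2 ratios were -2.33, -2.09, -1.94 and -1.62 on the Th1 arrays and 2.87, 3.12, 2.96 and 3.10 on the Th2 arrays. The gene was thus below naive in Th1 and above naive in Th2 in all 4 contexts, and its values within a cell type lay within 1 log2 unit of each other. The difference was -5.01 (SE 0.11, adjusted p = 9.63e-06), and -4.78 and -5.36 on the DMSO arrays. Efna5, an ephrin ligand, was not well above background on any Th1 array and stood at 2.20, 4.97, 2.07 and 4.17 on the Th2 arrays, at least 7.47-fold higher in Th2. It passed the filter on low values through its Th2 arrays alone, so its place among the 10 largest is a description and no test is given. The remaining genes of the 10 largest were Il4, Gata3, Ecm1, the neurotensin precursor Nts (-2.95), Jchain (-2.64), which joins immunoglobulin chains, the LIM protein Pdlim4 (-2.52), Pros1 (-2.39), the anticoagulant protein S, and Ms4a1 (-2.38), which encodes the B cell antigen CD20.

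All 4 tested B cell markers were higher on the Th2 arrays, among them Ms4a1, Cd79b (-2.29) and Cd79a (-0.37), with Pax5 not tested. Ms4a1 stood at 1.59, 1.66, 0.27 and 0.15 on the Th1 arrays and 3.78, 3.78, 2.47 and 3.14 on the Th2 arrays, above the naive reference throughout. Without the 50 nM reactivated pair 2 of the 4 markers were called, as were 2 with the log ratios of the scanner software, 2 with each array shifted by its spike-ins, a setting chosen after seeing the data, and 1 without the block for context. On the DMSO arrays of 1 slide the median over the 4 genes was -1.27 in unstimulated and -1.52 in reactivated cells. Their part in the Th2 values of Jchain and of the other genes was not tested.

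The GATA motif, searched as AGATAA or TGATAA on both strands, was present in 18.6% of all windows and in 12.9% of those of tested genes. It was found in 13.4% of the genes called higher in Th2, in 12.9% of those called higher in Th1, and in 6 of the 25 matched genes of the Th2 lists. The windows of Slpi and Il4 are shown with the motif in capitals, as the largest Th2 difference and the signature cytokine of the lineage. In Slpi it lies 17 bases before the start, and in Il4 just after the start, in 1 of 2 windows of the gene.
Slpi, chr2:164356458-164356757, minus strand: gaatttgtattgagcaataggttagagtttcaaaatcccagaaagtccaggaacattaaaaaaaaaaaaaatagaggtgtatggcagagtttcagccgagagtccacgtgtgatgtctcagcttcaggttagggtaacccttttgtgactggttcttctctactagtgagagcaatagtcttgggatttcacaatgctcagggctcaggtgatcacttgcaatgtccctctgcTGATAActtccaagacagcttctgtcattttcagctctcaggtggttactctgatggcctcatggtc
Il4, chr11:53618616-53618915, minus strand: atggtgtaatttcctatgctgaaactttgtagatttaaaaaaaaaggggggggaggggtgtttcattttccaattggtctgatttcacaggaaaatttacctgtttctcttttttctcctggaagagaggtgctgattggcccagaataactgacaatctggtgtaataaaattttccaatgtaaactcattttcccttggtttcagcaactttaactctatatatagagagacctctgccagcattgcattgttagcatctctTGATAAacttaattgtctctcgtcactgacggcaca

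The Th1-Th2 differences under JQ1 were set beside those of the DMSO arrays, which took no part in the calls. Of 928 genes called higher in Th1 under JQ1 with a DMSO value, 881 (94.9%) were also higher in Th1 in both the unstimulated and the reactivated DMSO pair, and of 752 called higher in Th2, 721 (95.9%) were higher in Th2 in both. Among genes above 0 and not called under JQ1, 43.7% had the same sign in both DMSO pairs, and among those below 0 50.3%. Median differences of the called Th1 genes were 0.66 and 0.61 on the unstimulated and reactivated DMSO pairs, 0.73 and 0.59 at 50 nM and 0.60 and 0.65 at 500 nM. The DMSO pairs held 487 genes at least 2-fold higher in Th1 (3.98%) and 366 higher in Th2 (2.99%) in unstimulated cells. In reactivated cells these were 320 (2.61%) and 254 (2.07%). The corresponding numbers under JQ1 were 508 and 299 for 50 nM unstimulated, 271 and 197 for 50 nM reactivated, 306 and 173 for 500 nM unstimulated and 271 and 195 for 500 nM reactivated. Across the tested genes, differences of the same state correlated more closely (Pearson's r of 0.86 between 50 and 500 nM in unstimulated and 0.76 in reactivated cells) than those of opposite states (0.49 to 0.53 among the JQ1 pairs), a description over genes that share a reference RNA and not a test.

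**Figure D2:**
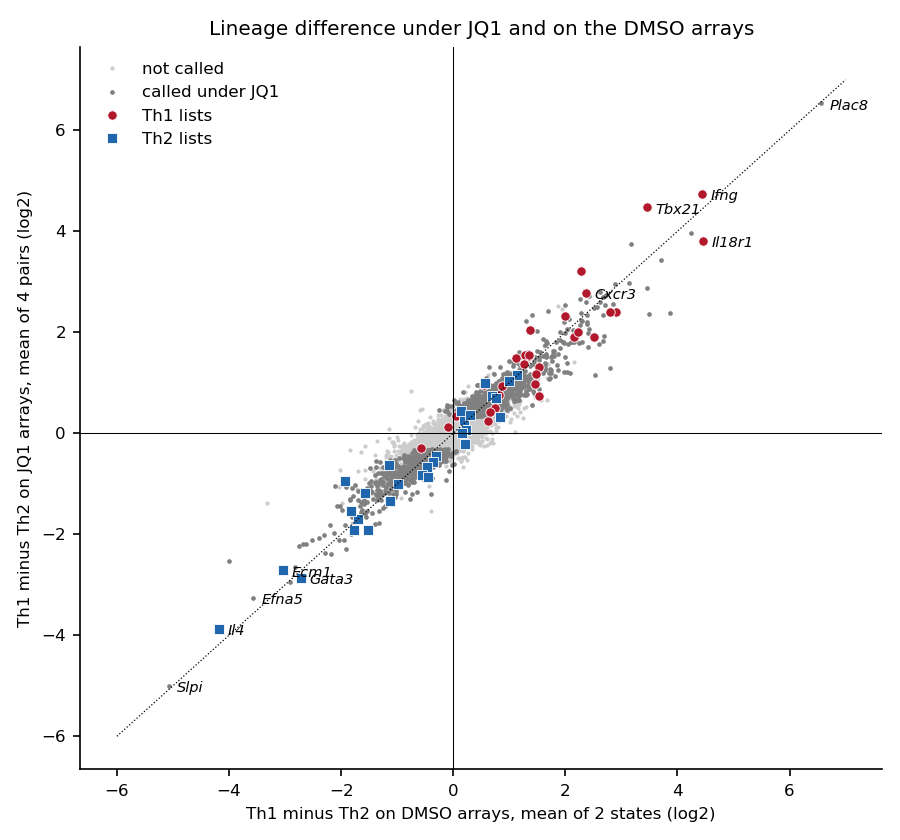
Th1-Th2 difference of each tested gene in log2 units on the JQ1 arrays, as the mean of 4 pairs (y axis), against that on the DMSO arrays, as the mean of the unstimulated and reactivated pair (x axis). Each point is a gene; dark grey points passed the limma test under JQ1, red circles are the Th1 lists, blue squares the Th2 lists, and the dotted line marks equal values. Plac8, Ifng and Tbx21 lie at the upper right and Slpi, Il4 and Gata3 at the lower left.

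Of 22 cell cycle genes tested, Ccne1 (0.40) was higher in Th1 and Aurkb (-0.92) higher in Th2, the other 20 did not pass, and the median was 0.07, beside 13.7% called over all genes. On the DMSO arrays, unstimulated and reactivated, Cy3 log2 intensities of Aurkb were 7.03 and 6.60 in Th1 against 7.13 and 6.60 in Th2. Those of Ccne1 were 12.71 and 12.14 against 12.18 and 11.92. Of 13 genes for BET proteins and elongation factors, Aff1 (0.41), a scaffold of the super elongation complex, was higher in Th1 and Hexim1 (-0.57), an inhibitor of P-TEFb, was higher in Th2. The BET gene Brd2 differed by 0.19, and Cdk9, the kinase of P-TEFb, by 0.00, without passing. Among 12 genes of naive and homing cells, Ccr7, the lymph node homing receptor, was higher in Th1 with a difference of 2.15 (SE 0.15, adjusted p = 7.73e-04), while Il6ra was higher in Th2 (-0.99). Of 325 tested genes that lie nearest to T-bet super-enhancers mapped by ChIP-seq in Th1 cells, 82 were higher in Th1 (25.2%) and 21 higher in Th2 (6.46%), with a median of 0.24.

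The Th1-Th2 difference was next compared between reactivated and unstimulated cells. The contrast of the Th1-Th2 difference in reactivated minus that in unstimulated cells passed the test for 663 genes above 0 (5.42%) and 767 genes below 0 (6.26%), together 11.7%. The share above 0 was 46.4%, and 16% with each array centred on its median, a setting that moved the median of all genes by -0.16. A shift by the spike-ins, chosen after seeing the data, moved it by -0.66 and left 4 genes called above and 607 below 0. In the group below 0, the median difference was 0.57 in unstimulated and -0.29 in reactivated cells, and its sign turned for 466 of 767 genes. In the group above 0 it went from -0.49 to 0.29, and 368 of 663 turned. In Cy3 alone, 1426 of these 1430 genes had the same sign and 1075 also passed. These calls rest on 1 residual degree of freedom with spread shared between genes: with the state term as the only interaction 355 and 424 genes passed, and with that fit and without the 500 nM reactivated pair 85 and 189. All values without a pair use that fit. With the log ratios of the scanner software none passed with limma, although 2064 genes had an unadjusted p below 0.05 and 1399 of the 1430 kept their direction.

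Of 31 interferon response genes tested, 23 had a lower Th1-Th2 difference in reactivated cells, none had a higher one, and the median contrast was -1.13, against 0.01 for all genes. In unstimulated cells 24 of the 31 genes were higher in Th1 at both doses, and in reactivated cells 16 were higher in Th2 at both doses. Igtp, an interferon-inducible GTPase that defends against intracellular parasites, had log2 ratios of 1.19, -1.66, 0.57 and -1.65 on the Th1 arrays and -1.57, -0.16, -2.50 and -0.97 on the Th2 arrays. Th1 arrays were higher when unstimulated and Th2 arrays when reactivated. The mean Th1-Th2 difference was 2.91 in unstimulated and -1.09 in reactivated cells, a contrast of -4.00 (SE 0.19, adjusted p = 2.56e-09). With the state term as the only interaction 15 of 31 genes of the list passed, without 1 pair 13 to 22, and in Cy3 alone 19.

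The related GTPases Gm4951 and Tgtp2 were among the 5 largest contrasts below 0 of all genes, at -4.03 (SE 0.19, adjusted p = 2.56e-09) and -3.81 (SE 0.18, adjusted p = 2.56e-09). Gbp2, a guanylate-binding protein, had log2 ratios of 3.20, 2.52, 2.82 and 2.03 on the Th1 arrays and -0.67, 1.98, -2.03 and 1.24 on the Th2 arrays. Th1 arrays were high in both states and Th2 arrays only when reactivated, and the contrast was -3.69 (SE 0.20, adjusted p = 9.70e-09). Irgm1 (-3.11), Irgm2 (-2.57), Gbp5 (-2.61), Isg15 (-2.22) and the factor Irf1 (-2.73) passed as well. Averaged over states, 5 of the 31 genes were higher in Th1, and 9 without the 50 nM reactivated pair. The 5 were Gbp3 (2.71), Gbp5 (2.75), Ly6a (2.43) and the immunoproteasome subunits Psmb8 (0.95) and Psmb10 (0.86). On the DMSO arrays the median of the list was 0.62 in unstimulated and -1.09 in reactivated cells, beside 0.90 and -0.59 at 50 nM and 1.0 and -0.09 at 500 nM.

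**Figure D3:**
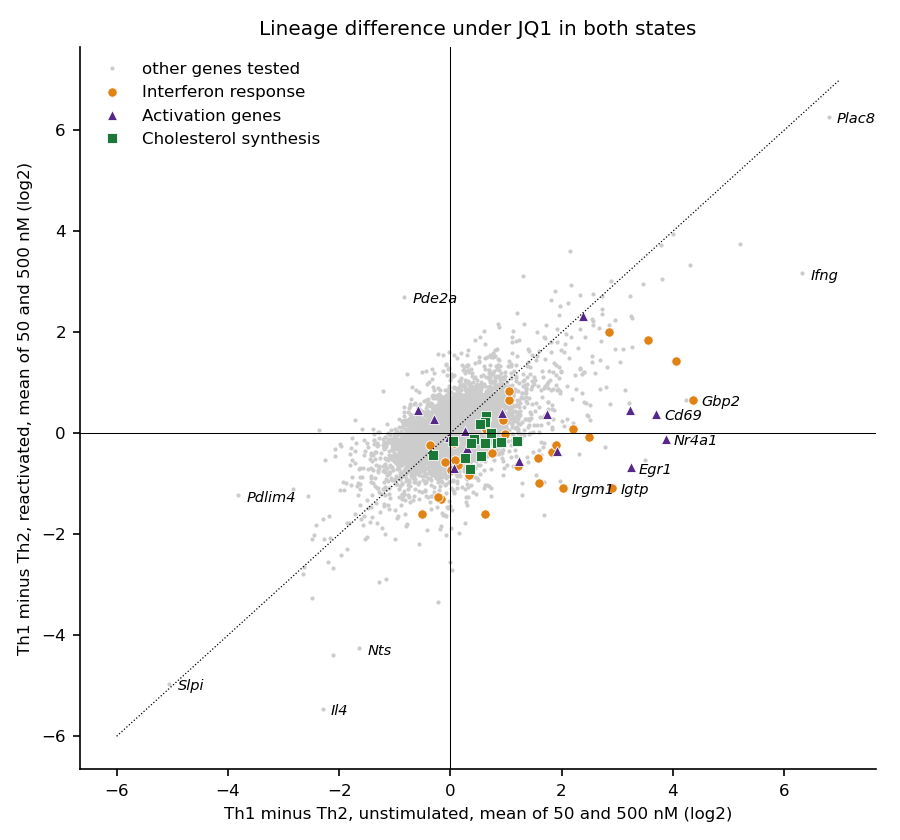
Th1-Th2 difference under JQ1 in log2 units in unstimulated cells (x axis) and reactivated cells (y axis), each the mean of the 50 and 500 nM pair, with 1 point per tested gene. Orange circles are interferon response genes, purple triangles activation genes and green squares cholesterol synthesis genes, and the dotted line marks equal values. Igtp and Irgm1 lie at the lower right, where the sign turns, while Plac8 and Slpi lie near the line.

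The interferon-stimulated response element, searched on both strands as GAAA and a second GAAA with any 2 bases between them, was present in 3.44% of all windows and in 15 of the 24 interferon response genes with a window (62.5%). Of the tested genes with a window 3.69% held it. It was found in 7.73% of the genes with a called contrast below 0 and in 2.46% of those with one above 0. The group below 0 includes genes of the interferon list. The windows of Igtp and Irgm1 are shown with the element in capitals, as 2 genes whose lineage difference turned its sign between states. It lies 34 bases before the start of Igtp, and 2 overlapping copies lie in the window of Irgm1.
Igtp, chr11:58199306-58199605, plus strand: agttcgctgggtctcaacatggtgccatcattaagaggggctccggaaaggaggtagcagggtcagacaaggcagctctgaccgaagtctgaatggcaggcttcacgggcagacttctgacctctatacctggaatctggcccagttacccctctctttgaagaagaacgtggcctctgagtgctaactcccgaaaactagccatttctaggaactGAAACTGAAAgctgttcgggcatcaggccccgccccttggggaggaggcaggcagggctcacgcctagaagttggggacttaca
Irgm1, chr11:48871371-48871670, minus strand: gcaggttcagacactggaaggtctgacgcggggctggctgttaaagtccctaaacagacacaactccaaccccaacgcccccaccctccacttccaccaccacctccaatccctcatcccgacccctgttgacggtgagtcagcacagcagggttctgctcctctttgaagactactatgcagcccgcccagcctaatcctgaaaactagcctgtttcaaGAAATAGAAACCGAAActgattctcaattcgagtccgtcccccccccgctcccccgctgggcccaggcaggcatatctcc

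Activation genes are induced in T cells of either lineage within hours of receptor signalling. Of 15 tested, 8 had a lower Th1-Th2 difference in reactivated cells and 1, Il2 (1.05), a higher one. Nr4a1 had log2 ratios of 2.28, 3.68, 2.01 and 3.86 on the Th1 arrays and -1.86, 3.86, -1.58 and 3.90 on the Th2 arrays. Only the unstimulated Th2 arrays were low, below naive, while unstimulated Th1 arrays were above naive and the reactivated arrays of both lineages were highest. Its difference went from 3.87 to -0.11, a contrast of -3.98 (SE 0.20, adjusted p = 4.12e-09). Egr1 went from 3.24 to -0.67 and the early activation antigen Cd69 from 3.69 to 0.39. Unstimulated DMSO arrays gave 4.23, 2.97 and 4.19 for these 3 genes. Without the 500 nM reactivated pair 7 of the 15 genes passed below 0. Of 15 cholesterol synthesis genes, 8 passed below 0 and none above, among them Hmgcs1 (-1.34), and 2 passed without that pair.

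The largest contrast above 0 belonged to Pde2a. Pde2a, a cyclic nucleotide phosphodiesterase, had log2 ratios of -4.09, -2.02, -4.02 and -1.93 on the Th1 arrays and -2.80, -4.58, -3.65 and -4.78 on the Th2 arrays. Every value was below naive, Th1 lowest when unstimulated and Th2 lowest when reactivated, and the contrast was 3.54 (SE 0.20, adjusted p = 9.70e-09). Pdlim4 (2.59), Tdrp (2.43), the kinesin Kif21b (2.04) and the complement gene Hc (1.98) completed the 5 largest. Of 12 naive and homing genes, 5 passed above 0 and 1 below, and S1pr1, which guides T cells out of lymph nodes, was among the former at 1.52 (SE 0.18, adjusted p = 4.46e-05). Without the 500 nM reactivated pair 1 of the 12 genes passed above 0 and none below. The direction of the list depends on the scaling: 1 passed above and 1 below 0 with each array centred on its median, and none above and 1 below with the spike-in shift, where the median went from 0.59 to -0.07.

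All 5 tested Th2 cytokines had a contrast below 0: Il4 -3.16 (SE 0.32, adjusted p = 8.79e-06), Il24 -2.73, Il13 -1.67, Il31 -1.32 and Areg -0.93. Il13, Il24 and Il31 were dim on the unstimulated arrays of both lineages, with Cy3 log2 intensities of 5.94 to 6.52. Their unstimulated differences were thereby held near 0, at -0.16, 0.02 and -0.02. Their contrasts thus restate the reactivated differences of -1.83, -2.70 and -1.33. Areg had a reactivated difference of -0.14 and an unstimulated one of 0.80, with 1.63 in the 50 nM pair. With the state term as the only interaction 3 of the 5 passed. With the software's log ratios the values of Il4, Il13 and Il31 turned their sign, to 2.23, 0.13 and 0.78, none of them called. Of the 9 Th1 ligands, 7 passed below 0 and Xcl1 above 0. Below 0 passed 5 with the state term as the only interaction, and 4 with that fit and without either the 50 nM or the 500 nM reactivated pair. For 4 of the 7 the direction depends on the naive channel: in Cy3 alone, Ifng went from -3.16 to 0.88, Ccl4 from -1.29 to 0.09 and Ccl5 from -0.63 to 0.52, none of these 3 called there, and Ccl3 went from -0.76 to 3.78 and passed in the opposite direction. No direction is given for these 4 genes. Cxcl10 (-2.60), Fasl (-1.95) and Tnf (-1.17) kept theirs. Tbx21 had a contrast of -1.46 (SE 0.34, adjusted p = 0.00976), which did not pass in Cy3 alone, at -1.28, or with the state term as the only interaction, and was -0.33 without the 50 nM reactivated pair. Gata3 had one of -0.78 (SE 0.18, adjusted p = 0.0102), and no pair could be left out without losing that call. With the 24 hr Th1 500 nM arrays, 13 of the interferon genes, 2 of the Th2 cytokines and 1 of the Th1 ligands passed below 0, and none of the activation, cholesterol or naive and homing genes passed in either direction.

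**Figure D4:**
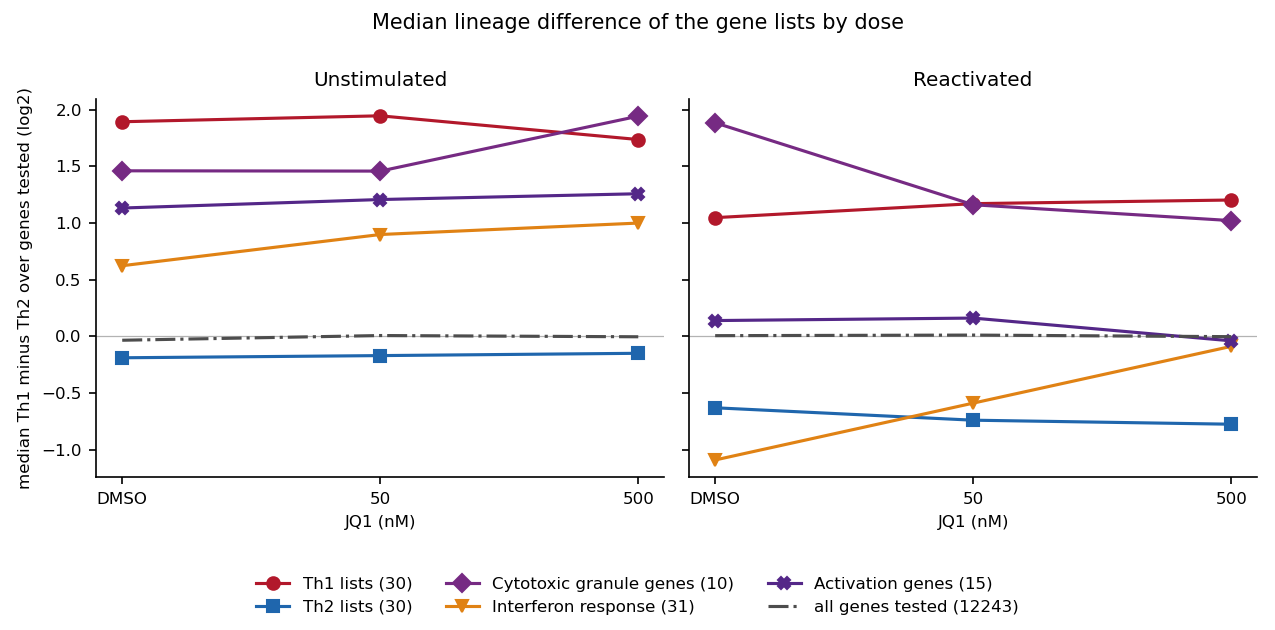
Median Th1-Th2 difference in log2 units over the tested genes of each list (y axis) by JQ1 dose in nM (x axis), in unstimulated cells at the left and reactivated cells at the right. Each point is the median over the genes of 1 pair of arrays, the number of genes stands in the legend, and the dash-dotted line is the median of all genes tested. The Th1 lists lie between 1.05 and 1.95 and the Th2 lists between -0.78 and -0.15 in every pair, and the interferon list lies above 0 in unstimulated and below 0 in reactivated cells.

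The Th1-Th2 difference was last compared between the doses. The contrast of 500 minus 50 nM passed the test for 2 genes above 0 (0.0163%) and 8 genes below 0 (0.0653%), together 0.0817%, with 815 genes at an unadjusted p below 0.05. Centring each array on its median gave 9 genes above and 491 below 0 and moved the median of all genes by -0.30. Above 0 were Rtp4, an interferon-induced receptor chaperone, at 1.74 (SE 0.26, adjusted p = 0.0206), and Pdlim4 at 1.42 (SE 0.24, adjusted p = 0.0441). Both were below naive and lower in Th1, and in both the Th2 value was lower at 500 than at 50 nM: Rtp4 stood at -5.57, -6.24, -6.04 and -5.78 in Th1 and -4.52, -2.82, -5.97 and -4.84 in Th2.

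The 8 genes below 0 included Klrd1 (-1.25), Ifi211 (-1.20), Slc35d3 (-1.18), Dyrk3 (-1.17), Cxcl10 (-1.09), Pik3r6 (-1.07) and Il18r1 (-1.07). Il18r1 and Cxcl10 belong to the Th1 lists and Klrd1 to the cytotoxic list. Dyrk3, a kinase, stood at 4.11, 3.78, 2.59 and 2.57 on the Th1 arrays and 2.55, 2.80, 2.18 and 2.78 on the Th2 arrays. The values at 500 nM were lower than those at 50 nM in Th1 while the Th2 values differed less. The contrast was -1.17 (SE 0.18, adjusted p = 0.0206). Klrd1 stood at -0.10, -0.77, -1.45 and -2.17 in Th1 and -3.30, -3.58, -3.61 and -3.52 in Th2, where 1 of 4 arrays was well above background. None of the 10 genes was called with the software's log ratios, in Cy3 alone, in the table the authors deposited, or with dose as the only interaction. Within each state the change with dose had the same sign for all 10 genes. The fit tests the change against its spread between states, so a call nearly requires this agreement and gains no support from it. The Th1-Th2 difference of Cxcl10 went from 3.69 at 50 nM to 2.73 at 500 nM in unstimulated and from 1.21 to -0.0033 in reactivated cells. That of Pdlim4 went from -4.85 to -2.78 in unstimulated and from -1.61 to -0.85 in reactivated cells.

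**Figure D5:**
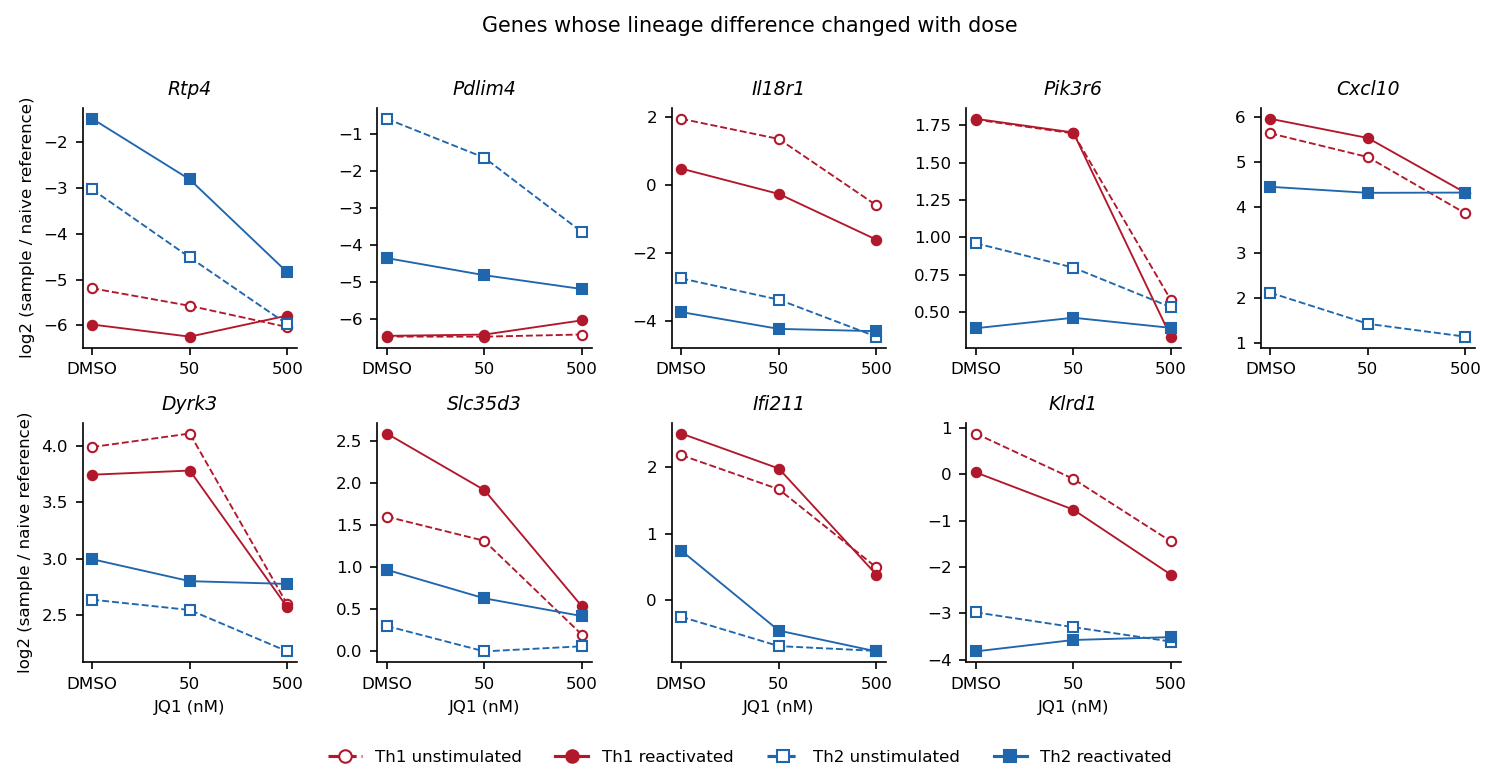
Log2 ratio of sample over naive reference (y axis) by JQ1 dose in nM, with DMSO at the left (x axis), on each array for 9 genes whose Th1-Th2 difference passed the test between 50 and 500 nM. Red circles are Th1 and blue squares Th2 arrays, open symbols with dashed lines are unstimulated and filled symbols with solid lines reactivated cells, and each point is 1 array. Il18r1, Klrd1, Dyrk3 and Ifi211 are lower at 500 than at 50 nM in both Th1 states.

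The lists were also followed over the doses, as values without a test. The median of the Th1 lists was 1.89 with DMSO, 1.95 at 50 nM and 1.74 at 500 nM in unstimulated cells, and 1.05, 1.17 and 1.20 in reactivated cells. For the Th2 lists it was -0.19, -0.17 and -0.15 in unstimulated cells and -0.63, -0.74 and -0.78 in reactivated cells. The cytotoxic list stood at 1.46, 1.46 and 1.94 in unstimulated and 1.88, 1.16 and 1.02 in reactivated cells. Of the 30 Th1 genes 3 passed the dose test, all below 0, and of the 30 Th2 genes none did.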

How the data were processed

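Scanner files of 2-colour arrays were analysed. Per the file headers, Feature Extraction software gave mean and background intensity values per spot and channel, and a log10 ratio of red over green, whose sign was turned to Cy3 over Cy5 when used as an alternative. A series matrix of log2 values for 34710 probes, deposited by the authors with centring not stated, served as a further alternative. Other processing settings are not given in the sources used here. From 62976 spots, intensity values were corrected with normexp (offset 50) and loess-normalized within arrays (R 4.3.3, limma 3.58.1). Control spots were left out, repeated spots averaged, and the brightest of a gene's probes kept (20022 symbols, assigned through the RefSeq accessions of the probes). A gene was tested where Cy3 was well above background on at least 4 of the 8 arrays. Cell type was fitted with the 4 dose and state contexts as a block. State and dose contrasts came from a fit with both interactions (1 residual degree of freedom). P values were adjusted over 12243 genes by Benjamini-Hochberg, with calls below 0.05. Arrays limit precision by their number. Tested on simulated data of 12243 genes, the cell type fit recovered 92 of 100 genes changed by 1 log2 unit. Of 100 genes changed by 2 log2 units it recovered 99. The state fit recovered 95 and 100, and the dose fit 87 and 100. Among the 12043 unchanged genes, the cell type fit made 20 false calls, the state fit 21 and the dose fit 18.

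Named genes were members of the lists, the 10 largest called differences in each direction with the same sign in 4 of 4 pairs, and the 5 largest called contrasts in each direction. The members and lists were chosen with earlier results of these data known. Alternatives changed the background correction, normalization, channel, filter, probe rule, block and arrays. The 24 hr arrays and other treatments were otherwise left out. Values of some named genes are not reported here.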

Additional observations from a re-analysis of the deposited data

Results flagged for a closer look

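Among 111 groups of 4 values, 5 had a highest or lowest value far from the other 3 by Dixon's test, which chance gives in about 1 of 20 groups. The first was the spike-in median log2 ratio of the Th1 500 nM reactivated array, at 0.94. The others were Th1-Th2 differences in 1 of the 4 pairs: Tbx21 at 2.61 in the 50 nM reactivated pair, Ms4a1 at -2.99 in the 500 nM reactivated pair, Areg at 1.63 in the 50 nM unstimulated pair and Kif3a at 0.10 in the 50 nM reactivated pair.

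The Th1-Th2 difference itself differed between states, by the test of the interaction, for 663 genes above 0 and 767 below 0. The 5 largest contrasts above 0 were Pde2a 3.54, Pdlim4 2.59, Tdrp 2.43, Kif21b 2.04 and Hc 1.98. The 5 largest below 0 were Gm4951 -4.03, Igtp -4.00, Nr4a1 -3.98, Egr1 -3.92 and Tgtp2 -3.81. Between doses the interaction passed for 2 genes above 0, Rtp4 1.74 and Pdlim4 1.42, and 8 below 0, of which the 5 largest were Klrd1 -1.25, Ifi211 -1.20, Slc35d3 -1.18, Dyrk3 -1.17 and Cxcl10 -1.09.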

How the results depend on the processing

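The main count of 929 genes higher in Th1 and 752 higher in Th2 became 391 and 508 with median centring, 29 and 23 without the context block, 2166 and 2003 with both interactions in the model, and 2010 and 1941 with the DMSO arrays added and slide as a random block. It became 273 and 190 with the 24 hr Th1 500 nM arrays, 189 and 167 with the spike-in shift chosen after seeing the data, and 86 and 47 genes were at least 2-fold apart in 4 of 4 pairs. Leaving out 1 pair gave 407 to 548 and 241 to 452. The deposited log2 table gave 1365 and 816. For the 105 genes named or listed, 1752 values under the alternatives held no reversal, and 233 no longer passed. Fits without the context block, with additive state and dose, or with both interactions keep the estimate, so they could not reverse it. A gene not called in the main fit counted as reversed only if called in the opposite direction. The largest differences were also chosen for the same sign in 4 of 4 pairs. The lack of reversals is therefore no support for the calls.

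State contrasts (663 above and 767 below 0) numbered 0 and 0 with the software log ratio in limma (2064 at an unadjusted p below 0.05), 314 and 1643 with median centring, 272 and 361 with the mean of all probes, 355 and 424 with only this interaction fitted, 17 and 64 with the 24 hr arrays, and 4 above with the spike-in shift. Leaving out 1 pair, with only this interaction fitted, gave 85 to 283 and 178 to 435. Contrasts turned their sign for Ifng (0.88 in Cy3 alone, 0.89 in the deposited table), Ccl4 (0.086, 0.061), Ccl5 (0.52, 0.55) and Ccl3 (3.78, 3.72), and with the software log ratio for Il4 (2.23), Il13 (0.13), Il31 (0.78), Nts (0.48) and Xcl1 (-0.085). The cause was not tested.

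Dose contrasts (2 above and 8 below 0) numbered 0 and 0 in limma with the software log ratio (612 at an unadjusted p below 0.05), in Cy3 alone (787), in the deposited table (863), with the filter on all 8 arrays (652), with the mean of all probes (724), with only this interaction fitted (141) and without any 1 pair, which required that fit. They numbered 9 and 491 with median centring, 28 and 29 with the 24 hr arrays, and 0 and 1 with the spike-in shift. Without 1 pair that fit leaves the states unbalanced, so the values also hold the state contrast and say nothing of the dose contrast's stability: Cxcl10 ranged from -2.45 to 0.28 (0.15 without the 50 nM unstimulated pair) and Pdlim4 from -0.20 to 3.04. Il18r1 turned to 0.94 with the software log ratio. On the DMSO arrays the software log ratio gave 822 and 727 genes at least 2-fold apart in unstimulated and 655 and 558 in reactivated cells.

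The labels carry no replicate numbers, and the cell type fit paired the arrays by dose and state. With 1 array per condition the spread between cultures is unknown, cell type and slide cannot be told apart under JQ1, dyes were not swapped, and dim genes carry only their signal over background.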

Other observations

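Values of 3 genes that are in none of the lists, and were chosen after their values were seen, are given as a description. H2-Aa, an MHC class II chain, had log2 ratios of 0.67, 0.78, -0.19 and -0.11 on the Th1 arrays and 2.35, 2.37, 1.55 and 1.51 on the Th2 arrays, in the order 50 nM unstimulated, 50 nM reactivated, 500 nM unstimulated and 500 nM reactivated. The groups did not overlap, and the difference was -1.66. Cd74, the invariant chain of MHC class II, differed by -1.53 and Mzb1, a chaperone of antibody-secreting cells, by -1.77. B cell markers were higher on the same Th2 arrays, and their part in these values was not tested.

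Il17f, the Th17 cytokine, stood at 0.53, 2.60, -0.06 and 1.33 on the Th1 arrays and -0.07, 4.24, 0.24 and 3.64 on the Th2 arrays, with 3 of 4 arrays of each cell type well above background. It was highest on the reactivated Th2 arrays and its mean difference over the 4 pairs did not pass in limma (-0.91, adjusted p = 0.213), while its state contrast was -2.12 (adjusted p = 1.75e-06).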
